A study of Mus musculus with 4 samples.

Results

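The genes described here were nearly silent in 2 mouse cell clones labelled as double knockouts of the DNA methyltransferases DNMT3A and DNMT3B, while a cell line with an edited Prdx1 gene still expressed them. They were chosen from their levels as CPM, a library's counts divided by its total and set to a common scale, adjusted between libraries by the trimmed mean of M values (TMM). A protein-coding gene was taken if it had at least 4 CPM in unedited cells, under 1/8 of that level in both knockout clones, and at least 1/3 of it in the Prdx1-edited line. Of 10195 protein-coding genes at 4 CPM or more in unedited cells, 130 (1.28%) were under 1/8 in both clones and 61 of these kept 1/3 or more in the Prdx1-edited line. The rule also names 10 genes to leave out, of which 6 were among these 61, and this gave 55 genes, of 54532 counted in all. The levels in all 4 libraries chose the genes, so their levels are given as a description and support nothing about them.

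All 4 libraries came from C3H10T1/2, an established line of mouse mesenchymal stem cells. They were WT (unedited, 1 library), PRDX1MT (1 library, whose labels give both a CRISPR edit of the splice acceptor of Prdx1 intron 5 and the genotype PRDX1-KO, from a clone named c10) and DNMT3A/B double knockout cells, DKO, as clone 1 and clone 5. The labels do not say how the DKO clones were derived or whether they also carry the Prdx1 edit. With 1 library for WT and 1 for PRDX1MT, these groups have no replicate. The libraries held 27570136 to 37685798 counts, so that 3 counts, the limit that a count of 0 allows, were worth 0.0729 to 0.121 CPM. Prdx1 stood at 399 CPM in WT, 31.2 in PRDX1MT, 392 in clone 1 and 332 in clone 5. Dnmt3a had 43.7, 80.9, 31.3 and 25.9 CPM in the same order and Dnmt3b 3.28, 3.74, 2.83 and 2.03 CPM, so the counts did not show the loss of either gene. A small edit need not change a gene's count, and the knockout is taken from the labels. Of 16 mesenchymal markers, 14 or 15 had at least 1 CPM in each library, against at most 1 of 10 epithelial markers, and Epcam had 0 reads in all 4. Endothelial markers summed to 6.88 CPM in WT and 14.6 to 18.3 CPM in the 3 edited lines, with 1 of 8 at 1 CPM in WT and 2 of 8 in each of the others. Immune markers summed to 3.18 CPM in WT and 4.90 to 9.70 CPM in the others, with Adgre1 and Cd3e at 0 reads throughout. Neural markers, with 3 or 4 of 8 at 1 CPM in each library and Olig2 at 0, summed to 19.1 CPM in WT, 29.1 in PRDX1MT, 26.3 in clone 1 and 44.3 in clone 5. Muscle markers, with at most 2 of 6 at 1 CPM and Myod1 at 0, summed to 1.51, 8.80, 2.30 and 2.76 CPM, and fat markers, with 2 or 3 of 5 at 1 CPM, to 51.1, 76.6, 62.3 and 48.4 CPM. The part of these marker differences in the levels below was not tested. None of the markers is among the 55 genes. RNA from a whole culture cannot tell apart fewer cells that express a gene and less RNA per cell.

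DNMT3A and DNMT3B are the enzymes that place methyl groups on cytosines of CpG sites that carry none, while DNMT1 copies the pattern after replication. Methylation of a CpG-rich promoter goes with silence of its gene, whereas methylation of gene bodies is common in expressed genes. PRDX1, peroxiredoxin 1, is a thiol enzyme that breaks down hydrogen peroxide.

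The promoters of the genes without a read in either clone are shown because their CpG content is what the methyltransferases act on. Of the 7 such genes, 6 were matched by symbol to an entry in the RefSeq promoter table (GRCm38.p6). The windows run from 250 bases before to 50 bases after the RefSeq start, read 5′ to 3′ on the gene's strand, with each CpG in capitals.
Slit3, chr11:35121206-35121505, plus strand: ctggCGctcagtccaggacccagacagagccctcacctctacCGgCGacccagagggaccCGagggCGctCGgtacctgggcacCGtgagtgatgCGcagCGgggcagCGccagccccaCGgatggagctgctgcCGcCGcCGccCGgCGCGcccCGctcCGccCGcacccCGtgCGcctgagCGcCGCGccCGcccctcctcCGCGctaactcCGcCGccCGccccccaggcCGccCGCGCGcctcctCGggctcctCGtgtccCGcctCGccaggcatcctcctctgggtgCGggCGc
Ranbp17, chr11:33513704-33514003, minus strand: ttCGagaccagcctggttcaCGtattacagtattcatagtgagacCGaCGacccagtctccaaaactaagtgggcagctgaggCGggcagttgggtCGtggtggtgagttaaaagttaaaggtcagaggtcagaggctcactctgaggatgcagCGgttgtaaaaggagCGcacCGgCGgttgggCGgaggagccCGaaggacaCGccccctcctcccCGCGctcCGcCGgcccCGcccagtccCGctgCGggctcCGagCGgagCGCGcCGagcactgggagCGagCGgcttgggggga
Ror2, chr13:53286075-53286374, minus strand: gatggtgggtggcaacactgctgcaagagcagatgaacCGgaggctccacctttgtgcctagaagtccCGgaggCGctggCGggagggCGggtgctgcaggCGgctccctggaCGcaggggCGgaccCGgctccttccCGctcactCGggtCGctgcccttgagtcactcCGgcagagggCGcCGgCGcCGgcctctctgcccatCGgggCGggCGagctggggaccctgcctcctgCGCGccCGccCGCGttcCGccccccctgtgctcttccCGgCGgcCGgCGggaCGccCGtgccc
5730409E04Rik, chr4:126609604-126609903, plus strand: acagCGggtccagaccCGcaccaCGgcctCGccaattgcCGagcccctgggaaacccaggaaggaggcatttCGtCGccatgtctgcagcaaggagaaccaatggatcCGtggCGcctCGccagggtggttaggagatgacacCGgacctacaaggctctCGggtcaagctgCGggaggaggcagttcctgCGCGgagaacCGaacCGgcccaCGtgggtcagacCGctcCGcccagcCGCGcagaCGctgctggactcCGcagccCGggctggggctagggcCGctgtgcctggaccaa
Krba1, chr6:48395336-48395635, plus strand: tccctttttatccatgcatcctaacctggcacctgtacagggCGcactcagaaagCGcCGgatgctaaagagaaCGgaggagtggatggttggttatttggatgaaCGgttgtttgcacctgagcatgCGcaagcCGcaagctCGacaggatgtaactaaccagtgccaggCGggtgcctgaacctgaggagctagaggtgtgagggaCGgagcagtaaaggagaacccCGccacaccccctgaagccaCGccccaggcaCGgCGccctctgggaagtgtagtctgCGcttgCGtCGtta
Cnrip1, chr11:17051609-17051908, plus strand: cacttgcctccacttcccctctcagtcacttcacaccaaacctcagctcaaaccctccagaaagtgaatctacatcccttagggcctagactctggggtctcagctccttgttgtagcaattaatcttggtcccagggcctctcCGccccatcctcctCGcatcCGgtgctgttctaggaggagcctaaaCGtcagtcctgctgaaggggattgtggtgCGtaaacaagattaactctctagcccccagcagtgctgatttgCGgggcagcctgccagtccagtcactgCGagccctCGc
These windows differed in CpG content. The CpG ratio, the number of CpG sites over the number that the window's C and G content would give, ran from 0.357 in Cnrip1, with 8 CpG sites, to 0.928 in Slit3, with 41. Of the 6 windows, 5 reached 0.6, a usual bound for a CpG island. Among other protein-coding genes at 4 CPM or more in WT, 79.3% of windows reached it, so nothing is read from the 5.

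The 55 genes were of modest level in WT, with a median of 10.2 CPM against 34.5 CPM over all protein-coding genes at 4 CPM or more. In WT 29 of them had at least 10 CPM and 2, Col11a1 and Fbn2, at least 100 CPM. A median of 2.23% of the WT level was left in clone 1 (range 0 to 12.4%) and 1.78% in clone 5 (0 to 12.3%). Under 1 CPM was left in both clones for 44 of the 55 genes. The PRDX1MT library held a median of 84.6% of the WT level, with a range from 34.1% to 689%. Per kilobase of exon, Hist1h1a was the highest in WT at 54.6 CPM per kilobase, followed by Col11a1 at 36.2, Trpv4 at 23.9 and Fbn2 at 18.3. Mpp7 was the lowest at 0.21 CPM per kilobase.

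**Figure D1:**
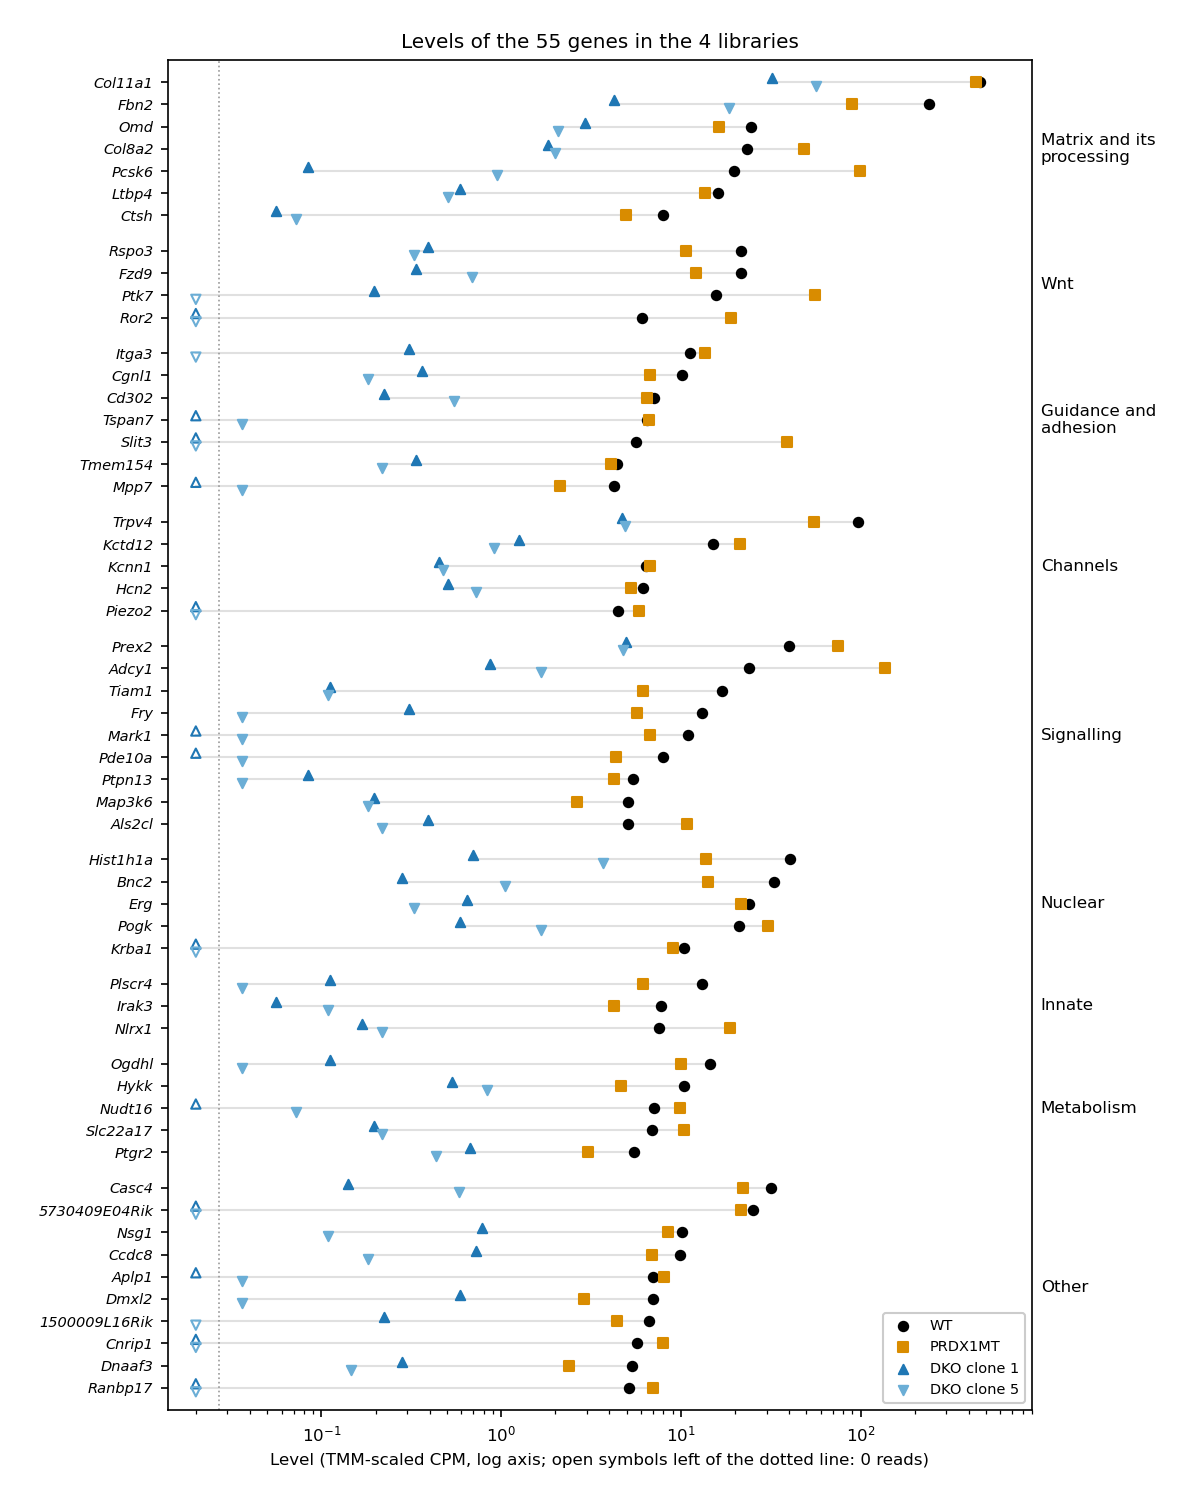
Level of each of the 55 genes (vertical axis, grouped by role) in TMM-scaled CPM on a log axis, with 1 symbol for each of the 4 libraries and open symbols for 0 reads. The WT and PRDX1MT symbols lie to the right of both DKO symbols for every gene, which the choice of genes fixes, and 7 genes have open symbols for both clones.

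A fit of all 4 libraries with edgeR's quasi-likelihood test gives the background. At an adjusted p under 0.05 it called 0.468% of 19446 genes in DKO against WT, 0.453% lower (88 genes) and 0.0154% higher (3 genes), and 34 of the 55 genes were among the lower. Against PRDX1MT it called 0.206%, 0.195% lower (38 genes) and 0.0103% higher (2 genes), with 28 of the 55 among the lower. The comparisons share the DKO libraries. Of the 55, 27 were called in both and 20 in neither, Col11a1, Fbn2, Hist1h1a and Omd among the latter. Since the same levels chose the genes, nothing is read from these counts. The only replicates behind the p-values are clone 1 and clone 5, with 1 residual degree of freedom. The test draws each gene's spread toward that of all genes tested, with 6.54 prior degrees of freedom. The single libraries are assumed to vary as much. With genes required to have 1 CPM in 2 libraries the fit called 0 of the 55 in either comparison, although all 55 had an unadjusted p under 0.05 in it, and with clone 5 alone, set against WT and PRDX1MT joined as 1 group, it called 7 of the 55. DESeq2 called 262 genes against WT, 52 of the 55 among them, and 215 against PRDX1MT, 47 of the 55 among them. As the same levels chose the genes, nothing is read from these counts either.

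Genes of the extracellular matrix and its processing included Col11a1 and Fbn2, the highest of the 55 in WT. Col11a1, a chain of type XI collagen that helps set the diameter of cartilage fibrils, had 462 CPM in WT, 440.2 in PRDX1MT, 31.97 in clone 1 and 56.7 in clone 5. Fbn2, fibrillin 2 of the microfibrils on which elastic fibres form, had 242, 89.9, 4.26 and 18.5 CPM in the same order. Col11a1 kept the most RNA of the 55 genes in both clones, and clone 5 held more of both genes than clone 1. Ltbp4, which binds latent TGF-beta and takes part in elastic fibre assembly, had 16.1, 13.6, 0.589 and 0.508 CPM. Col8a2, a chain of the network-forming type VIII collagen, had 23.5 CPM in WT, 48.6 in PRDX1MT, 1.82 in clone 1 and 2.00 in clone 5. Omd, the small leucine-rich proteoglycan osteomodulin, had 24.7, 16.3, 2.92 and 2.07 CPM. The clones lay close to each other for these 3 genes. Pcsk6, a secreted convertase that cleaves precursors of growth factors, had 19.9 CPM in WT, 99.0 in PRDX1MT, 0.0841 in clone 1 (3 reads) and 0.944 in clone 5 (26 reads). Ctsh, the lysosomal protease cathepsin H, had 7.97, 4.94, 0.0561 and 0.0726 CPM, the last both from 2 reads. Of their relatives, picked after their values were seen, several kept their RNA in the clones. Fbn1 had 1114, 960, 960 and 1108 CPM, Ltbp3 had 285, 358, 441 and 394 CPM, and Furin, another convertase, 155, 218, 238 and 167 CPM in WT, PRDX1MT, clone 1 and clone 5. Others varied between the clones, as Ogn, a relative of Omd, had 449.9, 196, 205 and 46.1 CPM and Col8a1 had 5.69, 0.804, 0.813 and 5.19 CPM. Ltbp2 was lower in both clones than in WT, with 482, 1452, 186 and 383 CPM. Pcsk5, of the family of Pcsk6, had 18, 1, 0 and 1 reads, a low count already in WT.

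In the lists of the wider families, 1 of 37 collagens tested was called lower in DKO than in WT by edgeR's adjusted p, namely Col8a2. Among 90 other matrix proteins 2 were called lower, Ltbp4 and Acan, and 1, Eln, higher. The median log2 difference of DKO from WT was 0.37 over the collagens and 0.34 over the matrix proteins, beside 0.03 over all genes tested. Ctsh was the 1 gene called lower among 85 proteases and protease inhibitors. Among 29 cartilage genes 2 were called lower, with a median of -0.60, and Col11a1 is the 1 of the 55 genes on that list. Over all genes tested 0.453% were called lower. The calls on these and the later lists are in part genes of the 55, which the same levels chose. Nothing is read from the counts of calls on any list.

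Among the 55 were 4 genes of Wnt reception, all cell-surface proteins or their secreted partners. Rspo3, a secreted protein that strengthens Wnt signals through LGR receptors, had 21.6 CPM in WT, 10.7 in PRDX1MT, 0.393 in clone 1 and 0.327 in clone 5. Fzd9, a Frizzled receptor for Wnt ligands, had 21.6, 12.2, 0.337 and 0.690 CPM in the same order. Both were lower in PRDX1MT than in WT. Ror2, a receptor kinase for Wnt5a, had 251 reads in WT (6.10 CPM), 474 reads in PRDX1MT (19.1 CPM) and 0 in both clones. Ptk7, a pseudokinase receptor of planar cell polarity, had 15.7 CPM in WT, 55.5 in PRDX1MT, 0.196 in clone 1 (7 reads) and 0 reads in clone 5. Both receptors stood higher in PRDX1MT than in WT. A count of 0 in both clones allows up to 0.0475 CPM over the pooled clones, so that Ror2 was at least 129-fold higher in WT and at least 401-fold higher in PRDX1MT. Of 45 Wnt genes tested, edgeR called 5 lower in DKO than in WT, beside 0.453% of all genes tested. The list's median log2 difference was -0.19. The 5 called were Rspo3, Fzd9, Ror2, Sfrp1 and Fzd3, of which Sfrp1 was left out of the 55 by name. Since the levels compared also chose Rspo3, Fzd9 and Ror2, nothing is read from this count. Other family members, picked after their values were seen, stayed present in DKO. Ror1 had 40.8 CPM in WT, 35.3 in PRDX1MT, 49.3 in clone 1 and 36.3 in clone 5, and Rspo2 had 405, 271, 768 and 267 CPM. Wnt5a, the ligand of Ror2, had 22.9, 18.2, 5.64 and 4.10 CPM, which the edgeR test did not call (adjusted p = 0.215 against WT).

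Guidance and adhesion gave 7 genes. Slit3, a secreted ligand of Robo receptors, had 233 reads in WT (5.66 CPM), 970 reads in PRDX1MT (39.0 CPM) and 0 in both clones. That is at least 119-fold higher in WT and at least 821-fold higher in PRDX1MT than over the pooled clones. Itga3, the integrin subunit that forms a laminin receptor with beta 1, had 11.2 CPM in WT, 13.6 in PRDX1MT, 0.308 in clone 1 (11 reads) and 0 reads in clone 5. Clone 5 was thus the lower clone for Itga3. Cgnl1, paracingulin of cell junctions, had 10.2, 6.71, 0.365 and 0.182 CPM. Cd302, a C-type lectin receptor, had 7.07, 6.51, 0.224 and 0.545 CPM. Clone 1 was higher for Cgnl1 and clone 5 for Cd302. Tspan7, a tetraspanin, had 266 reads in WT (6.46 CPM), 166 in PRDX1MT (6.67 CPM), 0 in clone 1 and 1 in clone 5. The polarity scaffold Mpp7 had 174 reads (4.23 CPM), 53 (2.13 CPM), 0 and 1. Tmem154, a membrane protein, was the highest left of these 7 in clone 1 as a share of WT, at 7.65%. Of 60 guidance cues and receptors tested, edgeR called 3 lower in DKO than in WT, Slit3, Sema3e and Robo1, with a list median of 0.06. The share called lower over all genes tested was 0.453%. The Slit3 receptor Robo1 had 236 reads in WT, 0 in PRDX1MT, 0 in clone 1 and 1 in clone 5, so it was missing from PRDX1MT, unlike Slit3. Slit2, a second ligand of that receptor, had 164 CPM in WT, 570.1 in PRDX1MT, 118 in clone 1 and 506 in clone 5.

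Channels and their partners numbered 5. Trpv4, a calcium-permeable channel that opens to swelling, warmth and stretch, had 97.3 CPM in WT, 54.8 in PRDX1MT, 4.68 in clone 1 and 4.87 in clone 5. Piezo2, a channel gated by mechanical force, had 184 reads in WT (4.47 CPM), 146 reads in PRDX1MT (5.87 CPM) and 0 in both clones. Its relative Piezo1 had 322, 415, 350.1 and 453 CPM, so the clones kept the RNA of that force-gated channel. Kctd12, an auxiliary subunit of GABA-B receptors, had 15.2, 21.2, 1.26 and 0.908 CPM. Hcn2, a cation channel opened by hyperpolarisation, had 6.20, 5.31, 0.505 and 0.726 CPM, and Kcnn1, a calcium-activated potassium channel, had 6.37, 6.71, 0.449 and 0.472 CPM. For all but Piezo2 the clones kept between 4.81% and 11.7% of the WT level, more than the median of the 55 genes. Among 122 ion channels tested, edgeR called 5 lower in DKO than in WT (Trpv4, Piezo2, Gria3, Gabre and Kcna6), with a list median of 0.22. The share called lower over all genes tested was 0.453%, and the levels compared also chose Trpv4 and Piezo2.

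Signalling inside the cell gave 9 genes, with enzymes of cyclic nucleotides and exchange factors of Rac among them. Adcy1, a calcium-stimulated adenylyl cyclase, had 23.98 CPM in WT, 137 in PRDX1MT, 0.869 in clone 1 and 1.67 in clone 5. Pde10a is a phosphodiesterase that breaks down cAMP and cGMP. It had 326 reads in WT (7.92 CPM), 108 in PRDX1MT (4.34 CPM), 0 in clone 1 and 1 in clone 5. An enzyme that makes cAMP and another that removes it were thus both among the 55 genes, and PRDX1MT stood above WT for the first and below it for the second. Of the other cyclases, picked after their values were seen, Adcy6 had 100.2, 149, 133.7 and 122 CPM and Adcy7 had 44.3, 51.9, 29.5 and 35.95 CPM, while Adcy3 had 17.1, 9.13, 2.64 and 5.74 CPM, so the clones kept RNA of other cyclases. Prex2 and Tiam1 are exchange factors that load Rac with GTP. Prex2 had 40.1 CPM in WT, 75.0 in PRDX1MT, 4.96 in clone 1 and 4.76 in clone 5, the nearest to the bound of all 55. Tiam1 had 16.9, 6.15, 0.112 and 0.109 CPM, the last 2 from 4 and 3 reads. In PRDX1MT the 2 genes lay on opposite sides of WT, since Prex2 was at 187% and Tiam1 at 36.4% of WT. Tiam2 had 177, 165, 129 and 119 CPM. Prex1, a relative of Prex2, was low already in WT, with 25 reads, and had 2 in PRDX1MT and 0 in both clones.

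The kinase Mark1, which phosphorylates microtubule-associated proteins, had 454 reads in WT, 167 in PRDX1MT, 0 in clone 1 and 1 in clone 5. Its relatives Mark2 and Mark3 stayed between 84.3 and 118 CPM in all 4 libraries. Fry, a scaffold of NDR kinases, had 13.1 CPM in WT, 5.71 in PRDX1MT, 0.308 in clone 1 (11 reads) and 0.0363 in clone 5 (1 read). Als2cl, which binds the small GTPase Rab5, had 5.08, 10.9, 0.393 and 0.218 CPM. Als2cl was thus higher and Fry lower in PRDX1MT than in WT. The kinase Map3k6 and the phosphatase Ptpn13 were near 5 CPM in WT (5.10 and 5.40 CPM), at 2.65 and 4.22 CPM in PRDX1MT, and had 3 to 7 reads in clone 1 and 1 to 5 reads in clone 5.

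Of the 5 nuclear genes, Hist1h1a encodes the linker histone H1.1, which is made mostly in S phase. It had 40.5 CPM in WT, 13.8 in PRDX1MT, 0.701 in clone 1 and 3.70 in clone 5. Other linker histone genes, picked after their values were seen, did not follow it. Hist1h1b had 110.4, 130 and 66.7 CPM in WT, PRDX1MT and clone 1 and 182 CPM in clone 5, and Hist1h1e had 275, 294, 206 and 454 CPM. Since the libraries were made from total RNA, histone messages without a poly(A) tail are kept in them. Erg, an ETS transcription factor known from endothelium and early cartilage, had 24.1 CPM in WT, 21.6 in PRDX1MT, 0.645 in clone 1 and 0.327 in clone 5. Endothelial markers summed to 6.88 CPM in WT, 18.3 in PRDX1MT, 15.7 in clone 1 and 14.6 in clone 5, and their part in the level of Erg was not tested. Its close relative Fli1 had 20.6, 11.8, 16.4 and 12.4 CPM, and Erg was the 1 gene called lower in DKO than in WT by edgeR among 69 factors of the ETS, Fox, Sox, GATA, T-box and Runx families. Bnc2, the zinc finger protein basonuclin 2 of mesenchymal cells, had 33.1, 14.1, 0.280 and 1.05 CPM. Pogk, which joins a KRAB domain to a transposase-derived domain, had 21.04, 30.8, 0.589 and 1.67 CPM. Krba1, named for its KRAB-A domain, had 428 reads in WT (10.4 CPM), 224 reads in PRDX1MT (9.004 CPM) and 0 in both clones, at least 219-fold higher in WT. None of the 276 Zfp genes at 4 CPM or more in WT is among the 55. Since 0.54% of all protein-coding genes at that level are, nothing is read from this. Of 345 Zfp genes tested, edgeR called 1 lower in DKO than in WT.

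Innate immunity and membrane defence gave Nlrx1, Irak3 and Plscr4. Nlrx1, a mitochondrial NOD-like receptor, had 7.53 CPM in WT, 18.8 in PRDX1MT, 0.168 in clone 1 and 0.218 in clone 5. Irak3 is a kinase-like inhibitor of Toll-like receptor signalling. It had 318 reads in WT (7.73 CPM), 106 in PRDX1MT (4.26 CPM), 2 in clone 1 and 3 in clone 5. Plscr4, a phospholipid scramblase, had 540 reads (13.1 CPM), 153 (6.15 CPM), 4 and 1. Nlrx1 was thus the 1 of these 3 that stood higher in PRDX1MT. None of the 23 interferon-stimulated genes at 4 CPM or more in WT is among the 55. Since 0.54% of all protein-coding genes at that level are, nothing is read from this.

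Metabolic genes numbered 5. Ogdhl, a relative of the 2-oxoglutarate dehydrogenase Ogdh, had 14.6 CPM in WT, 9.97 in PRDX1MT, 0.112 in clone 1 (4 reads) and 0.0363 in clone 5 (1 read). Ogdh itself had 158, 142, 168 and 149 CPM, so the clones kept the RNA of that enzyme. Hykk, hydroxylysine kinase, had 10.5, 4.66, 0.533 and 0.835 CPM. Nudt16 is a hydrolase of inosine nucleotides and mRNA caps. It had 291 reads in WT (7.07 CPM), 245 in PRDX1MT (9.85 CPM), 0 in clone 1 and 2 in clone 5. Slc22a17, known as a receptor for lipocalin 2, had 6.95, 10.4, 0.196 and 0.218 CPM. Nudt16 and Slc22a17 stood above WT in PRDX1MT and Hykk below it. Ptgr2, a prostaglandin reductase, kept 12.2% of its WT level in clone 1 and 7.90% in clone 5, close to the bound. Slc22a17 was the 1 gene that edgeR called lower in DKO than in WT among 296 transporters tested.

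The other 10 genes have varied or little-known roles. The highest in WT were Casc4, with 31.6 CPM in WT, 22.1 in PRDX1MT, 0.140 in clone 1 and 0.581 in clone 5, and 5730409E04Rik. The latter had 1043 reads in WT (25.4 CPM), 540 reads in PRDX1MT (21.7 CPM) and 0 in both clones, at least 534-fold higher in WT, the highest such bound among the 7 genes at 0. Cnrip1, which binds the tail of the cannabinoid receptor CB1, had 5.69 CPM in WT, 7.92 in PRDX1MT and 0 reads in both clones. Ranbp17, a member of the importin family, had 5.15 and 7.03 CPM and likewise 0 in both clones. Aplp1, of the amyloid precursor family, had 289 reads in WT (7.02 CPM), 201 in PRDX1MT (8.08 CPM), 0 in clone 1 and 1 in clone 5. Its relatives Aplp2 and App stayed above 200 CPM in all 4 libraries. Nsg1, an endosomal protein of neurons, had 10.1, 8.52, 0.785 and 0.109 CPM. Dmxl2, a subunit of the complex that assembles the vacuolar proton pump, had 6.97, 2.89, 0.589 and 0.0363 CPM. Nsg1 and Dmxl2 were among the genes with the widest gap between the clones as a share of WT. Ccdc8, of the complex with the ubiquitin ligase subunit CUL7, Dnaaf3, which helps to assemble dynein arms, and 1500009L16Rik had 5.35 to 9.89 CPM in WT and 2.37 to 6.91 CPM in PRDX1MT. They had 8 to 26 reads in clone 1 and 0 to 5 in clone 5.

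Across roles the genes at 0 reads in both clones were Slit3, Ror2, Piezo2, Krba1, Cnrip1, Ranbp17 and 5730409E04Rik, with 184 to 1043 reads in WT. Besides these, 6 genes had 1 to 3 reads over both clones, which sets their ratios only loosely. For Mark1 the pooled clones gave a ratio of WT to DKO of 697 and for Aplp1 of 444, each from 1 read in the clones. In clone 1 13 of the 55 genes had 0 reads and in clone 5 10 did. Clone 5 held the higher level for 25 genes and clone 1 for 23. The median log2 ratio of clone 5 to clone 1 was 0 over the 55 genes. The genes at 0 reads in both clones, whose log2 ratio is 0 by the prior count, hold the middle rank. Nothing is read from this median. Of the protein-coding genes at 4 CPM or more in WT, 172 were under 1/8 in clone 1 (1.69%) and 191 in clone 5 (1.87%). The 130 genes under it in both (1.28%) made up 75.6% of those of clone 1 and 68.1% of those of clone 5.

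**Figure D2:**
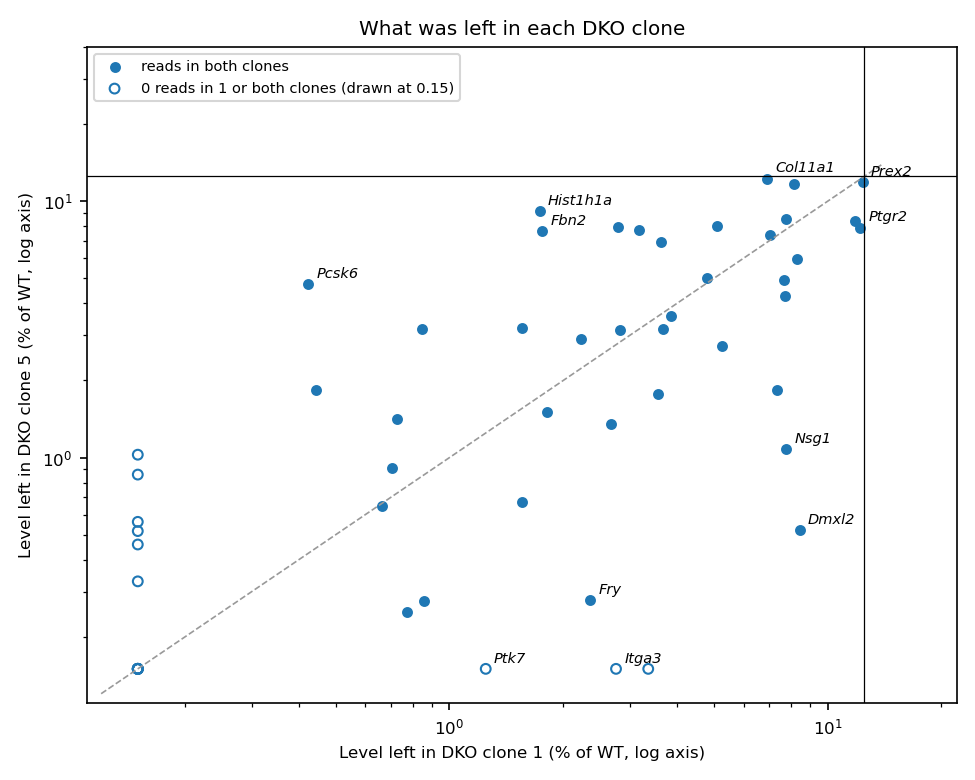
Level left in DKO clone 5 against that left in clone 1, each as a percentage of the WT level on log axes, for the 55 genes. Open circles have 0 reads in 1 or both clones and are drawn at 0.15%, the solid lines mark 1/8 of WT and the dashed line equal levels, and Dmxl2, Fry and Nsg1 lie well below it with Pcsk6 and Hist1h1a well above.

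The rule set only a lower bound for PRDX1MT, and above it the 55 genes were spread widely. Of them, 8 were at least 2-fold higher in PRDX1MT than in WT with a 95% exact interval of the ratio above 1, against 4.25% of the 10195 protein-coding genes at 4 CPM or more in WT. Another 10 were at least 2-fold lower, against 6.5% of those genes. The rule cut the 55 genes off at 1/3 of WT and did not cut the 10195, so nothing is read from these shares or from those of smaller differences. These intervals cover counting error only, since each side is 1 library, and PCR copies of a molecule are not told apart. Slit3 had the highest ratio, 6.89 (interval 5.96 to 7.98), followed by Adcy1 at 5.73 (5.34 to 6.16) and Pcsk6 at 4.99 (4.61 to 5.40). Ptk7 at 3.53, Ror2 at 3.12, Nlrx1 at 2.49, Als2cl at 2.14 and Col8a2 at 2.07 made up the rest. Of these 8, 3 are secreted or matrix proteins, 2 are receptors of Wnt signals and 3 act inside the cell. The lowest ratios were those of Hist1h1a at 0.341 (0.303 to 0.383), Tiam1 at 0.364 (0.304 to 0.434) and Fbn2 at 0.371 (0.355 to 0.389), followed by Dmxl2 at 0.415 and Bnc2 at 0.427. The other 5 at least 2-fold lower were Fry, Dnaaf3, Hykk, Plscr4 and Rspo3.

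With smaller differences included, the interval lay above 1 for 17 of the 55 genes, against 35.2% of the 10195 genes, and below 1 for 31, against 45.3%, and it held 1 for 7. The median log2 ratio of PRDX1MT to WT was -0.24 over the 55 genes and -0.07 over the 10195 genes. With libraries scaled by total counts alone, which moved all genes of PRDX1MT by -0.28 on the log2 scale against WT, 12 genes lay above 1 and 35 below. Aplp1, Tspan7 and Kcnn1, with ratios of 1.15, 1.03 and 1.05, then lay on the other side of 1. Hist1h1a, Tiam1 and Fbn2 were then under 1/3 of WT and left the selection.

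**Figure D3:**
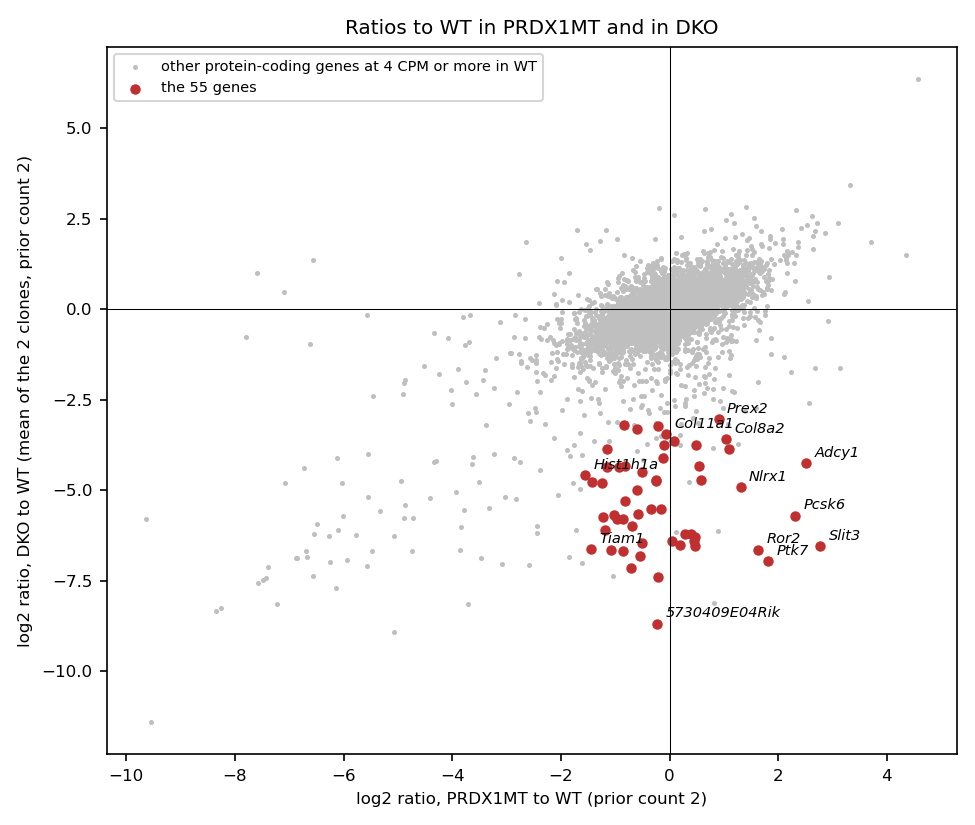
Log2 ratio of DKO to WT (mean of the 2 clones) against that of PRDX1MT to WT for protein-coding genes at 4 CPM or more in WT, with the 55 genes in red. Red points lie between -8.68 and -3.03 on the vertical axis and between -1.55 and 2.77 on the horizontal axis, and the choice of genes sets the bounds above and to the left.

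The bounds cut through a run of values. Just inside 1/8 of WT in the higher clone were Prex2 at 12.4%, Col11a1 at 12.3%, Ptgr2 at 12.2%, Omd at 11.8% and Hcn2 at 11.7%. Just outside were Zfp13 at 12.7%, Zfp618 at 13.3%, Pcdh1 at 13.4%, C530008M17Rik at 13.8% and Ptprq at 14.1%. For PRDX1MT, Hist1h1a at 34.1% of WT was the last inside, and Thsd7a at 32.3% and Jup at 32.2% were the first outside. Most of the genes left out on that side were far from the bound, since 52 of the 69 genes low in both clones and under 1/3 in PRDX1MT were also under 1/8 there.

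The 55 genes were spread over 18 chromosomes. Chromosome 9 held 8 of them, 1.41% of its 567 protein-coding genes at 4 CPM or more in WT, against 0.54% over all chromosomes. Chromosome 18 came next with 3 of 269, 1.115%, and chromosomes 15 and 19 held 0. These chromosomes were picked as the ends of the range, so nothing is read from their shares. In 2 cases a pair lay within 1 Mb. Col8a2 (GRCm38 chr4:126286793-126314330) and 5730409E04Rik (chr4:126609818-126614371) were 295487 bases apart, and Dmxl2 and Hykk on chromosome 9 were 415656 bases apart. The genes nearest to the first pair kept their RNA in the clones. Trappc3 beside Col8a2 had 42.6 CPM in WT, 42.9 CPM in clone 1 and 58.5 CPM in clone 5, and Psmb2 beside 5730409E04Rik had 64.3, 42.2 and 60.4 CPM.

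The nearest protein-coding genes at 1 CPM or more in WT on either side of each of the 55 genes were 109 distinct genes, and none of them was among the 55. Their median log2 ratio to WT was -0.13 in clone 1 and -0.17 in clone 5, beside -0.04 in both clones over 11528 protein-coding genes of the same minimum. Under 1/8 of WT in both clones were 2 neighbours, 1.84%, against 1.67% of those genes. They were Cpa6 beside Prex2 and Zfp467 beside Krba1. Zfp467, 7916 bases from Krba1, had 115 reads in WT (2.795 CPM), 43 in PRDX1MT (1.73 CPM) and 0 in both clones. It was below the minimum of 4 CPM in WT. The edgeR test called 0 of the 109 neighbours at an adjusted p under 0.05 in DKO against WT, 6 of them had an unadjusted p under 0.05, and DESeq2 called 2.

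**Figure D4:**
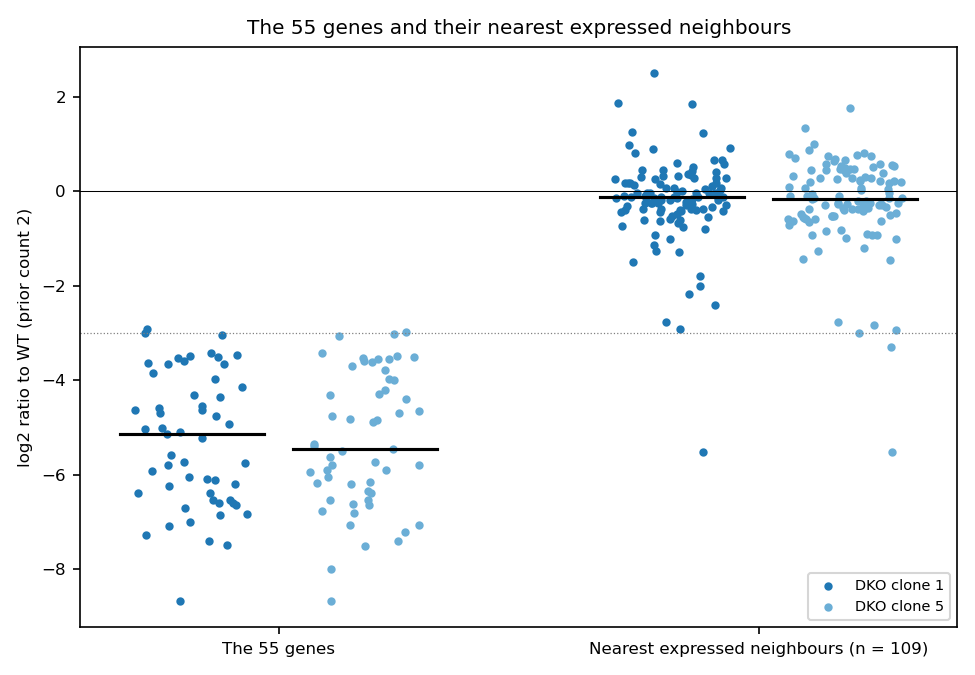
Log2 ratio to WT in DKO clone 1 (dark) and clone 5 (light) for the 55 genes and for their 109 nearest expressed neighbours, with bars at the medians and a dotted line at 1/8 of WT. The 55 genes have medians of -5.15 and -5.45, set by their choice, and the neighbours have medians of -0.13 and -0.17.

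Of the 55 genes, 29 overlap another annotated gene, and how the reads were assigned by strand is not given in the sources used here. In 4 cases the partner is a protein-coding gene of the opposite strand with at least 100 reads, namely Cenpp over Omd, Tada1 over Pogk, Stx18 over Nsg1 and Tmbim4 over Irak3. All 4 partners stayed present in the clones. Tmbim4 had 1520 reads in WT, 766 in PRDX1MT, 1279 in clone 1 and 684 in clone 5, where Irak3 had 2 and 3 reads. The residual reads of these 4 genes in the clones cannot be told apart from reads of the partner where the 2 overlap.

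Promoter sequence was not used by the rule. Windows of 300 bases were found in the RefSeq table for 46 of the 55 genes, 41 of them within 500 bases of the start that GENCODE gives. For Pde10a, Tiam1, Fry, Bnc2 and Ccdc8 the RefSeq start lies further away, so that their window is that of another start. The median CpG ratio was 0.681, between that of other protein-coding genes at 4 CPM or more in WT (0.798, 8086 windows) and that of all protein-coding windows (0.602, 16526). It was 0.567 over 51 windows of the genes that were low in the clones and also under 1/3 of WT in PRDX1MT. A ratio of at least 0.6 was found in 67.4% of the 46 windows, 79.3% of those of other expressed genes, 50.2% of all and 45.1% of the 51. Under 0.35 were 8 of the 46 windows, 17.4%, against 7.19% of other expressed genes, 34.1% of all and 13.7% of the 51. With only windows within 500 bases of the GENCODE start, 5 of 41 were under 0.35, 12.2%, against 6.01% of other expressed genes, 29.7% of all and 11.6% of 43. The genes thus held promoters at both ends of the range. Dmxl2 (ratio 1.29, 63 CpG sites), Mark1 (1.18, 64 sites) and Fzd9 (1.18, 53 sites) were the richest. Col11a1 (0.332, 9 sites), Cd302 (0.234, 3 sites) and Omd (0.0943, 1 site) were among the poorest, and the Bnc2 window held no CpG. DNA methylation was not analysed here.

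**Figure D5:**
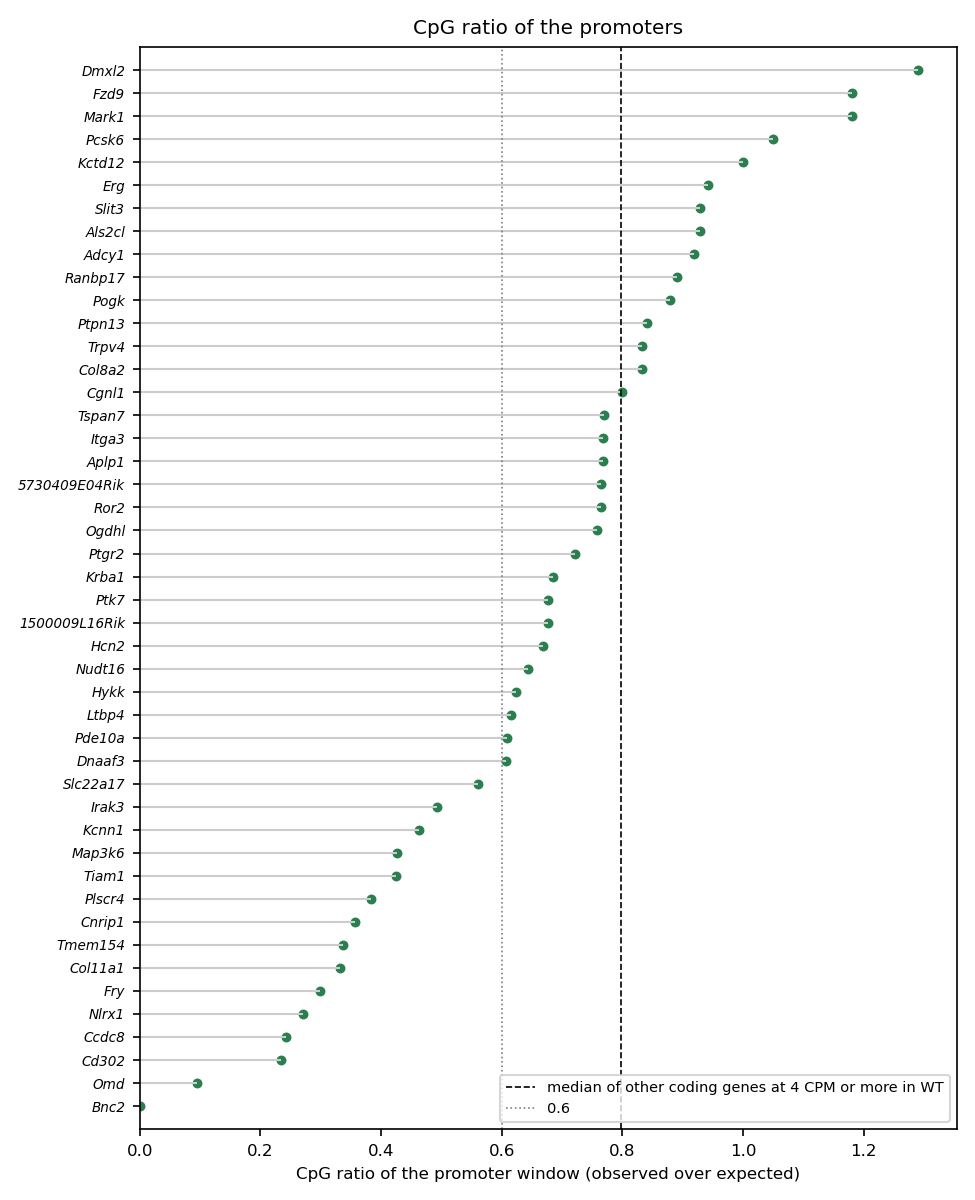
CpG ratio (observed over expected number of CpG sites, horizontal axis) of the promoter window of each of the 46 genes matched to a RefSeq entry. The dashed line is the median of other protein-coding genes at 4 CPM or more in WT, 0.798, the dotted line marks 0.6, and the points run from 0 in Bnc2 to 1.29 in Dmxl2.

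Motifs were searched by letters on both strands of the windows. TATAAA, the core of the TATA box, was in none of the 46 windows, against 6.06% of those of other expressed genes and 12.9% of all. GGGCGG, the GC box of Sp1-type factors, was in 67.4%, against 68.8% and 48.2%. CCAAT, the letters bound by NF-Y, was in 23.9%, against 39.5% and 38.8%. TGANTCA, the letters bound by AP-1, was in 8.7%, against 4.2% and 7.0%, and was found in Ror2, Dnaaf3, Tiam1 and Tmem154. CANNTG, the E-box, was in 67.4%, against 60.7% and 68.3%. The TEAD letters GGAATG were in 6 of the 46 windows, against 11.2% and 13.2%, and the cAMP-response letters TGACGTCA were in 2.17%, which is the Pogk window alone, against 3.56% and 2.42%. No motif other than the GC box and the E-box was in more than 23.9% of the 46 windows. In the 51 windows of genes also under 1/3 of WT in PRDX1MT, the motif absent from the 46 was in 1.96%. There the GC box was in 66.7%, the E-box in 68.6% and the NF-Y letters in 31.4%. The AP-1 letters were in 5.88%, the TEAD letters in 11.8% and the cAMP-response letters in 5.88%. These shares were not tested, and 5 of the 46 windows are those of another start. Nothing is read from them.

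Of 24 lists of gene families and pathways, 15 held at least 1 of the 55 genes and 9 held none, among them the lists of homeobox factors and of Notch genes. Those 2 lists have 37 and 12 genes at 4 CPM or more in WT. Since 0.54% of all protein-coding genes at that level are among the 55, nothing is read from such absences. For the lists of imprinted genes, sphingolipid and phospholipid enzymes, and cell cycle inhibitors and p53 targets, the absence was set by name, since Peg10, Cers4 and Ddit4l met the bounds and were left out. In all, 20 of the 55 genes were on a list and 35 on none. Of the genes on each list at 4 CPM or more in WT, the 55 held 4 of 48 ion channels and 3 of 27 Wnt genes. They also held 2 of 27 collagens, 2 of 34 receptor kinases and phosphatases and 3 of 61 matrix proteins. The share over all protein-coding genes at that level was 0.54%. The lists were chosen with earlier results of these data known, so nothing is read from these shares. Receptor kinases and phosphatases held Ror2 and Ptk7, and edgeR called 3 of 41 lower, these 2 and Ptprz1, with a list median of -0.08. The share called lower over all genes tested was 0.453%, and the levels compared also chose Ror2 and Ptk7.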

How the data were processed

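Libraries of 4 samples of C3H10T1/2 cells were made from total RNA depleted of ribosomal RNA, with a kit that keeps strand, per the labels' protocols. The submitters' processing notes name STAR 2.6.1d and mm10. The authors deposited raw whole-number counts, 1 value per gene and library. Which program and annotation counted the reads, and whether it used strand, is not given in the sources used here. Symbols, biotypes and coordinates came from GENCODE M21 (GRCm38), which held 54495 of 54532 gene IDs. The 37 others were kept unnamed, with no more than 0.00463% of the counts in any library.

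Tests were run in R 4.3.3 on the counts as deposited, by edgeR 4.0.16 (TMM factors on genes kept by filterByExpr, quasi-likelihood test, Benjamini-Hochberg adjusted p under 0.05 over 19446 genes) and, as an alternative, DESeq2 1.42.0. The DKO clones gave its 1 residual degree of freedom. Ratios of PRDX1MT to WT are ratios of scaled CPM with 95% conditional exact binomial intervals, and log2 ratios of single libraries use a prior count of 2. A fold against 0 reads was taken against 3 counts over both clones and is a lower bound. Depth was 27570136 to 37685798 counts per library, so low counts limit the genes nearest to 0.

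The 55 genes, the 24 gene lists and the cell markers were chosen with earlier results of these data known. Genes were given values in all 4 libraries if they were among the highest in WT, at 0 in both clones, on a list, at an end of the PRDX1MT to WT range, most different between the clones or within 1 Mb of each other, and the rest of the 55 were added for their roles after their values were seen. Relatives outside the 55 were picked after their values were seen. Promoter windows came from RefSeq (GRCm38.p6), matched by symbol on the same chromosome and strand, with the start nearest to that of GENCODE. A gene under another symbol there would be missed. Printed were those of the genes at 0 reads in both clones. Alternatives were other scalings, filters, bounds, tests and sets of libraries. The results of some items are not reported here.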

Additional observations from a re-analysis of the deposited data

How the results depend on the processing

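The number of genes chosen depended most on the bounds and on asking for both clones. It was 55 as reported, 30 at a minimum of 8 CPM in WT, 89 with under 1/4 of WT in the clones, 36 with under 1/16, and 84 to 105 when 1 clone alone was asked for. It moved by less than 1.5 times under the other choices, with 54 under DESeq2 size factors and 60 under total-count scaling, of which 52 were shared. Prex2 was not chosen under DESeq2 size factors or with TMM factors over all genes, an alternative added after the data were seen.

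Counts of calls depended on the filter and the tool. In DKO against WT edgeR called 91 genes, 34 of the 55 among them. DESeq2 called 262, with 52 of the 55, and edgeR without a filter 535, with all 55. A minimum of 1 CPM in 2 libraries left 0 called by edgeR, and 0 of the 55 (490 genes and all 55 had an unadjusted p under 0.05). Against PRDX1MT edgeR called 40 genes, 28 of the 55 among them, DESeq2 215 and 47, and edgeR without a filter 404 and 54. It called 13 and 7 with median-of-ratios scaling, 11 and 6 with the 2 groups alone, and 0 and 0 with 1 CPM in 2 libraries (530 genes unadjusted). With a clone left out no residual degree of freedom remains, so the other clone was set against WT and PRDX1MT joined as 1 group, which assumes that they vary like replicates and gives the same counts for both comparisons. It called 21 genes without clone 1 and 92 without clone 5, and 7 and 33 of the 55. The cause of these shifts was not tested.

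The median log2 ratio of PRDX1MT to WT over the 55 genes was -0.24, and -0.52 with total-count scaling, which lowered all genes of PRDX1MT. The share of CpG-rich promoters was 67.4%, and 56.5% without the 50 bases after the start. It was 73.2% with only windows near the GENCODE start, added after the data were seen. This share stayed within the limits set. The median between clones was 0 under every scaling and prior count, which the genes at 0 reads in both clones set. No paired analysis was possible, since WT and PRDX1MT have 1 library each and the DKO numbers 1 and 5 name clones.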
